A study of Mus musculus with 29 samples.

Results

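The 4 libraries compared here map H3K4me1, monomethylated lysine 4 of histone H3, in adult mouse microglia with and without IRF8, and make up 4 of the 25 libraries with a peak list in the series. They were chosen by title: 2 wild-type (WT) libraries and 2 from IRF8 knockout mice (KO, strain IRF8KO). All 4 came from female mice 3 months old, whose microglia, the resident macrophages of the brain, were released without enzymes and sorted, and all used the antibody Abcam ab8895. The mark was mapped by CUT&RUN, in which an antibody directs a nuclease to its target and the DNA set free is sequenced. The form of the knockout allele, the tissue in which IRF8 was removed, and whether the 2 libraries of a genotype came from separate or pooled animals are not described in the labels or files, so differences between libraries of a genotype may be technical. Of a genotype, a consensus region is a merged region present in both libraries. A consensus region with no listed region in either library of the other genotype is called WT-only or KO-only, and any other is called shared.

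H3K4me1 marks enhancers, the stretches of DNA that act on genes from a distance, whether they are in use or only accessible. Acetylation of lysine 27 (H3K27ac) is found on the enhancers and promoters in use, and H3K4me1 is usually thin right at the start of an active gene, where trimethylation takes its place. IRF8 is a transcription factor of macrophages and dendritic cells that often binds together with PU.1, the ETS factor that opens enhancers across the myeloid lineage. The pair binds a composite site that joins an ETS core (GGAA) to an IRF core (GAAA).

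The sequences below are shown as examples of the IRF8 sites described further on. They lie in H3K4me1 regions seen in both WT and neither KO library or at genes with less H3K4me1 in KO, and each holds a composite site near an IRF8 summit. They are 101 bases each, on the plus strand of GRCm38 (mm10), read from the RefSeq assembly. Capitals mark the composite site, searched on both strands as the ETS core followed, after any 2 bases, by the IRF core. A site on the minus strand is printed as its reverse complement. The first 4 are sites in 4 of the 5 strongest WT-only regions (the IRF8 summit of the remaining one, WT-only 2, has no composite site near it), and the last 2 lie at the genes P3h2 and Timd4. Of 12 genes with less H3K4me1 in KO that were searched, 3 (P3h2, Macc1 and Timd4) had a composite site at an IRF8 summit covered in WT alone, and Sall1, Il7r, Ctsh, Pdcd1, Batf3, Spp1, Tlr3, Casp1 and Plxdc2 had none.
WT-only 1, chr10:38211747-38211847: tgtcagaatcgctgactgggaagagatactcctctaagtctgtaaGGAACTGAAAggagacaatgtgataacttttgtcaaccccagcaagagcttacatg
WT-only 3, chr1:65536437-65536537: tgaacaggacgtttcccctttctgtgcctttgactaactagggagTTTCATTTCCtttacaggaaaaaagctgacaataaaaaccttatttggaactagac
WT-only 4, chr15:67387068-67387168: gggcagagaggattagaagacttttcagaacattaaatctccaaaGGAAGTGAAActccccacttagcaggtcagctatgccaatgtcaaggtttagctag
WT-only 5, chr17:54003699-54003799: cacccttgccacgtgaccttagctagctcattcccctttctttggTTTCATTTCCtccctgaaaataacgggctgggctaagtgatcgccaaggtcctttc
P3h2, chr16:26041460-26041560: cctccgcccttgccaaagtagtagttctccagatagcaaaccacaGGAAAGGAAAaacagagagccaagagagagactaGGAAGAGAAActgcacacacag
Timd4, chr11:46810682-46810782: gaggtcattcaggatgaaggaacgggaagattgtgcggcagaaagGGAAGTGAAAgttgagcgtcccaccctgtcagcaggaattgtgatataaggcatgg
The composite site lay 152 bases after the listed IRF8 summit in WT-only 1, 121 before it in WT-only 3, 148 before it in WT-only 4 and 147 after it in WT-only 5. The same offset held across the IRF8 set: composite sites numbered 544 within 100 bases of the 16934 summits, 2093 at 100 to 200 bases and 599 at 200 to 300. The P3h2 sequence lies in an intron 64.3 kb into the gene, and holds 2 composite sites. The Timd4 sequence lies outside the gene, its composite site 68 bases before the start.

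The libraries had 14.5 and 14.1 M fragments (M for mega) in WT and 15.8 and 23.9 M in KO (replicates 1 and 2, as in each list of values below), with mean fragment sizes of 247 and 260 bp in WT and 211 and 229 bp in KO. The IgG control that all 4 shared had 18.5 M fragments, and KO replicate 2 alone exceeded it. Homeostatic microglia genes carried H3K4me1 in every library: no member of the 16-gene list was at 0 in any. With 2 against 2 libraries the smallest two-sided exact permutation p is 0.333, so that test, the one used here between genotypes, cannot reach 0.05, and the values are given library by library. The KO libraries covered more of the GC-rich genome: with lists of equal length, regions took up 20.7% and 16.7% of the windows in the decile of highest GC content in WT against 26.96% and 28.8% in KO, and 4.4% and 7.4% of those in the lowest decile against 3.0% and 2.8%. Depth, fragment size and base composition move with genotype here and cannot be told apart from it. Results are therefore given for 3 kinds of list: the full lists, lists cut to the 104818 regions of highest −log10 p in each library (equal lists), and lists cut to 97302 regions with the same number in each decile of GC content (balanced lists).

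**Figure D1:**
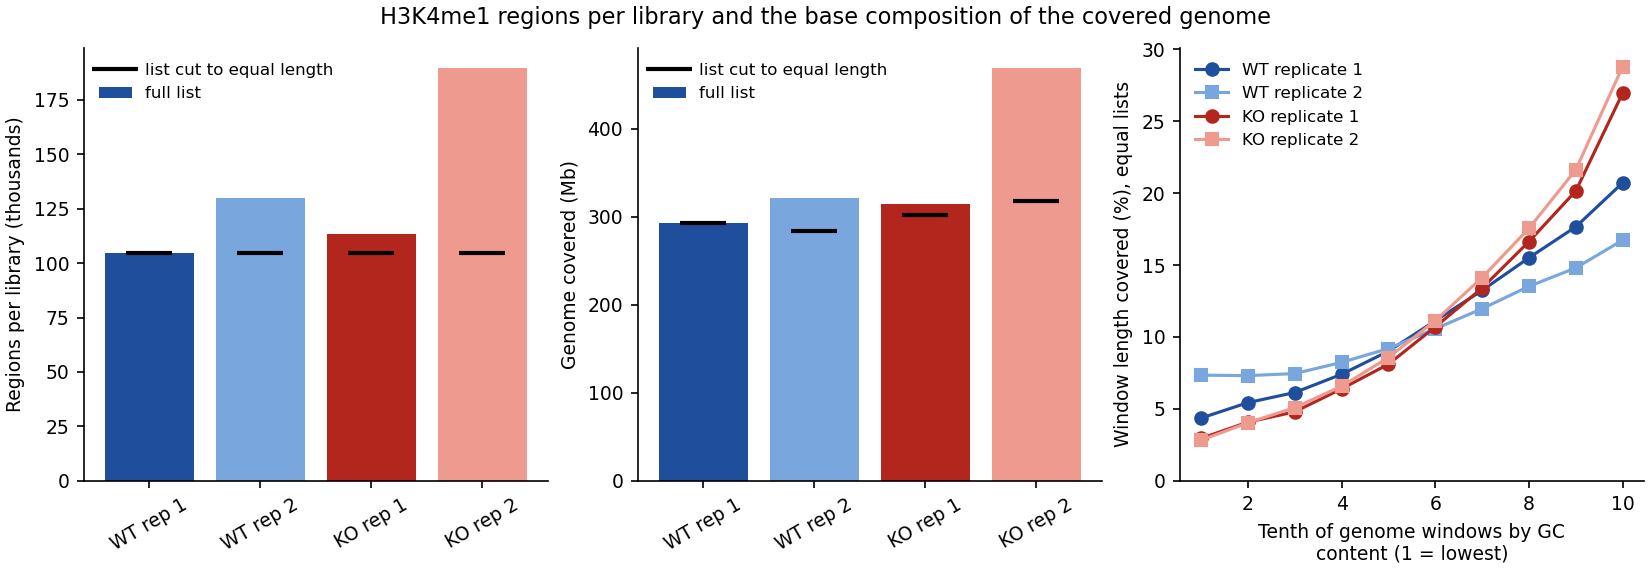
Number of H3K4me1 regions (left) and genome length they cover in Mb (middle) for the 4 libraries, as bars for the full lists and black marks for equal lists, and the share of genome windows covered in each decile of GC content with equal lists (right). KO replicate 2 stands above the other 3 libraries in the full lists, and both KO libraries lie above both WT libraries in the 4 GC-richest deciles.

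Over the full lists, H3K4me1 did not differ in number of regions by more than the libraries of a genotype differed from each other. The WT libraries listed 104818 and 129859 regions, the KO libraries 113370 and 189351. KO replicate 2 was far the longest list, and KO replicate 1 lay between the WT libraries. The ratio of geometric means was 1.26, or 0.33 on the log2 scale (exact permutation test, two-sided, p = 0.667), and −0.04 without KO replicate 2. Where only regions whose −log10 p reached 3 were kept, the lists held 32705 and 20601 regions in WT and 36220 and 63995 in KO, a log2 ratio of 0.89 with no overlap between genotypes (exact permutation p = 0.333, the smallest possible). Per M fragments the lists held 7209 and 9197 regions in WT and 7157 and 7928 in KO. Regions covered 293 and 321 Mb in WT and 314 and 468 Mb in KO. With equal lists the covered length was 293 and 284 Mb against 302 and 318 Mb, so that the KO regions were longer at the same number, with median widths of 1791 and 1832 bp against 1870 and 2076 bp (a difference of 161.5 bp, exact permutation p = 0.333). The median width in the full lists was 1791 and 1681 bp in WT and 1789 and 1746 bp in KO, a difference of 31.5 bp between the means (exact permutation p = 1) that turned to −724.5 bp among regions with a −log10 p of at least 3. Broad domains of at least 10 kb numbered 2961 and 2512 in WT and 3222 and 3188 in KO, with no overlap between genotypes.

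A pair of libraries shared about as many regions across genotypes as within one. Of the merged regions of 2 full lists, 28.2% were in both WT libraries and 27.6% in both KO libraries. Across genotypes the share ran from 23.1% (WT replicate 2 with KO replicate 2) to 30.4% (WT replicate 1 with KO replicate 1), the highest of all pairs. With balanced lists the pairs within a genotype shared 32.0% (WT) and 29.9% (KO), and the pairs across shared 26.4% to 31.2%. By covered length, equal lists shared 36.4% (WT) and 36.1% (KO) within a genotype, above the 29.2% to 35.5% across. By that measure the pairs within and across overlapped with full and balanced lists.

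Most H3K4me1 consensus regions of either genotype were present in the other. In WT, 6453 of 49737 consensus regions were WT-only, which is 13.0%. In KO, 14754 of 62025 were KO-only, 23.8%. The gap between the shares depended on the length of the lists: with equal lists they were 16.0% (7464 of 46606) and 17.3% (8202 of 47293), and with balanced lists 15.8% (7140 of 45268) and 15.4% (6486 of 42216). When a single library stands for a genotype the shares rise with the definition, to 19.04% to 44.1% for WT and 32.6% to 56.0% for KO over the 4 libraries left out in turn.

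Regions of 1 genotype were mostly weak and narrow ones. Strength is given here as the percentile of a region's −log10 p within its list, averaged over the 2 libraries. The median percentile was 42.3 for WT-only and 76.1 for shared WT regions, and 43.3 for KO-only and 74.7 for shared KO regions. WT-only regions had a median width of 2434 bp against 3896.5 bp for shared ones, and KO-only regions 2644 bp against 4272 bp. In the weakest decile of the lists 56.6% of WT and 68.8% of KO consensus regions had no counterpart, and in the strongest decile 2.27% and 2.15%. With balanced lists the strongest decile gave 3.86% in WT (318 of 8249) and 1.64% in KO (122 of 7437).

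Strong WT-only regions mostly carried H3K27ac in WT, and often IRF8, though both less often than shared regions of the same strength. Of the 225 WT-only regions at or above the 90th percentile, 80.4% overlapped a WT H3K27ac consensus region, against 19.7% of the 2195 between the 50th and 90th and 2.70% of the 4033 below. IRF8 consensus regions (present in at least 2 of 3 libraries of adult microglia from IRF8-EGFP mice) overlapped 47.6%, 9.57% and 0.69% of the same tiers. The KO H3K27ac consensus overlapped 1 of the 225. That consensus is shorter, with 10555 regions against 36697 in WT, and it overlapped 40.7% of the 9702 shared WT regions of the same strength, of which 91.3% had WT H3K27ac and 55.6% IRF8. With balanced lists the strong WT-only regions numbered 318, with WT H3K27ac at 84.9%, KO H3K27ac at 0.63% and IRF8 at 51.6%.

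The 5 strongest WT-only regions that were also WT-only with equal lists all carried IRF8 in 3 of 3 libraries and WT H3K27ac in 2 of 2. WT-only 1 (chr10:38209462-38214009, GRCm38) is intergenic, 610044 bp from the nearest protein-coding start, that of Rfpl4b. Its −log10 p was 18.3 and 13.0 in the WT libraries. WT-only 2 (chr4:40936325-40937571) lies in an intron of Bag1, which encodes a co-chaperone of Hsp70, 11254 bp from its start, with 13.3 and 8.93. WT-only 3 (chr1:65534131-65539209) is intergenic, 225413 bp from Pth2r, with 14.8 and 7.104. WT-only 4 (chr15:67385588-67388291) is intergenic, 210109 bp from St3gal1, a sialyltransferase gene, with 13.5 and 7.22. WT-only 5 (chr17:54000735-54005797) has its centre in an exon of the gene model Gm5684, with 14.9 and 6.90. PU.1 was listed in both WT libraries at WT-only 1, 2 and 5 and in 1 at WT-only 3, and in no KO library at any of the 5. PU.1 was less common over the class: of the 225 strong WT-only regions 4.89% overlapped the WT PU.1 consensus and 20% at least 1 WT PU.1 library, against 28.3% and 50.7% of the shared WT regions of that strength. KO H3K27ac was listed at WT-only 4 alone, in 1 of 2 libraries.

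Strong KO-only regions carried H3K27ac and IRF8 at lower shares than shared KO regions of the same strength. Of the 236 KO-only regions at or above the 90th percentile, 12.3% overlapped a KO H3K27ac consensus region and 72.5% a region of at least 1 KO H3K27ac library, against 1.29% and 26.7% of the 5283 in the middle tier and 0.23% and 14.1% of the 9235 weak ones. IRF8 overlapped 2.54% of the strong ones. Of the 10765 shared KO regions of that strength 45.5% overlapped the KO H3K27ac consensus, 90.9% at least 1 KO H3K27ac library and 49.5% IRF8. The strongest, KO-only 1 (chr14:65350239-65352716), has its centre in an exon of the gene model Gm48449, 6912 bp from the start of Zfp395. Its −log10 p was 12.2 and 13.6 in the KO libraries, and it carried H3K27ac in both WT libraries and IRF8 in 2 of 3. KO-only 2 (chr5:142455380-142461794) has its centre in an exon of Foxk1, a forkhead factor gene, with 11.4 and 12.5. KO-only 3 (chr7:135918478-135922020) is intergenic, 203888 bp from Mki67, with 11.9 and 10.4. KO-only 4 (chr18:46377812-46379885) is 66920 bp from Ccdc112, with 9.14 and 10.7. KO-only 5 (chr15:25545060-25547521) is 76235 bp from the start of Myo10, with 8.19 and 11.9. Each of the 5 had H3K27ac in 1 of 2 KO libraries, none had PU.1, and IRF8 was listed at none of KO-only 2 to 5. KO-only 2 and 3 also had H3K27ac in 1 of 2 WT libraries, and KO-only 4 and 5 in neither.

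**Figure D2:**
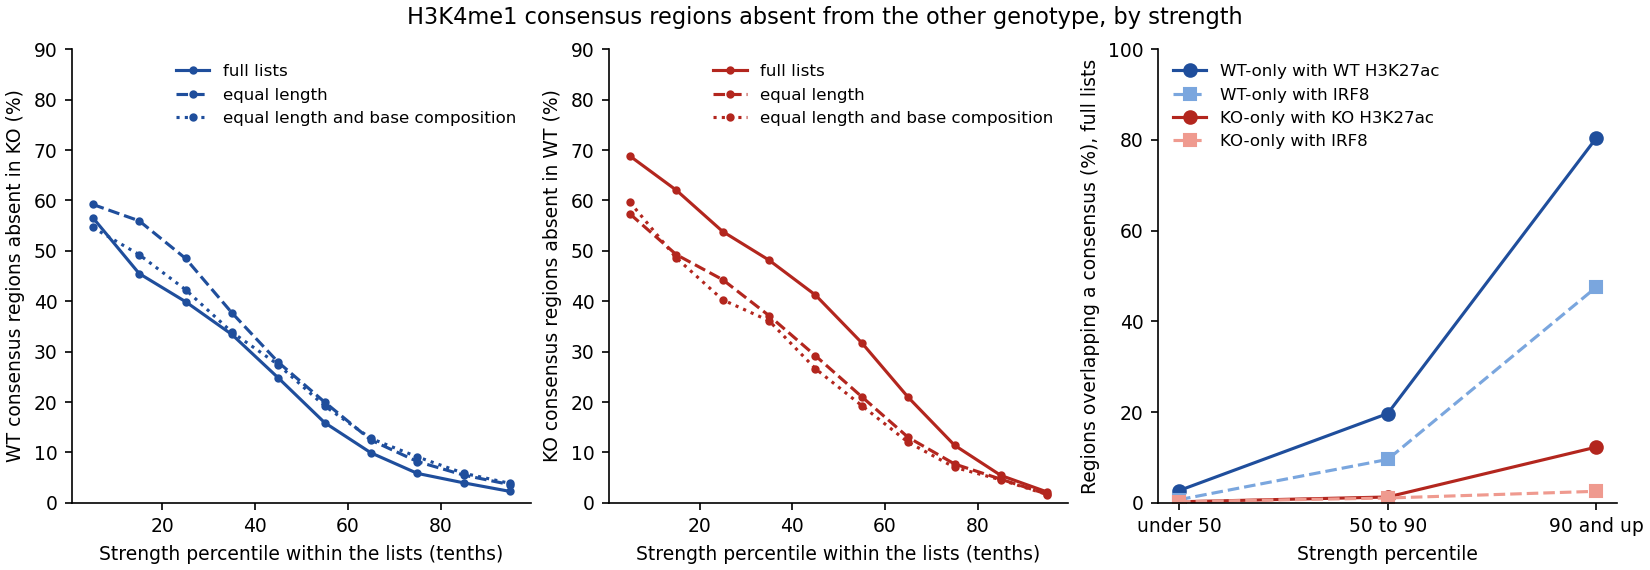
Share of consensus H3K4me1 regions absent from the other genotype by decile of strength, for WT (left) and KO (middle) and 3 kinds of list, and the share of WT-only and KO-only regions that overlap an H3K27ac or IRF8 consensus region by strength tier (right). The curves fall from 54.6% to 68.8% in the weakest decile to under 4% in the strongest, and H3K27ac and IRF8 are at higher shares in strong than in weak WT-only regions.

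The difference at IRF8 sites was also read at the sites themselves. H3K4me1 covered 92.2% and 88.1% of the 16934 IRF8 summits in the WT libraries and 81.5% and 85.04% in the KO libraries (full lists). With balanced lists the values were 91.9% and 88.0% against 80.2% and 78.8%, so both WT libraries lay above both KO libraries in either kind. At 5 kb before the summit the order was not the same: 40.4% and 38.5% in WT against 43.0% and 45.5% in KO with full lists, and 40.0% and 37.8% against 41.7% and 39.0% with balanced lists. Summits covered in both WT and neither KO library in all 3 kinds of list numbered 833, or 4.92%, and those covered in both KO and neither WT library 119, or 0.703%. The sites were called only in microglia that have IRF8, and KO has no such set. That choice may favour coverage in WT, and its part in the asymmetry was not tested.

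IRF8 summits with a composite ETS-IRF site were covered in WT alone more often than those without. A composite site within 200 bases was found at 2464 summits (14.6%), against 4.00% in windows of the same 401 bases shifted by 1 kb. At these summits H3K4me1 covered 93.8% and 91.0% in WT and 74.7% and 73.2% in KO (balanced lists). At the 14470 summits without one it covered 91.5% and 87.5% in WT and 81.1% and 79.8% in KO. In all 3 kinds of list, 225 composite summits (9.13%) were covered in WT alone and 7 (0.28%) in KO alone, against 608 (4.20%) and 112 (0.77%) of the others. Weak IRF8 summits with a composite site, under the median −log10 p, gave 10.8% (91 of 839), and strong ones 8.25% (134 of 1625). The same was seen from the regions: the composite site stood within 200 bases of 31.5% of the IRF8 summits in WT-only H3K4me1 regions (111 of 352), 14.4% of those in shared regions (2145 of 14941) and 7.79% of those in KO-only regions (6 of 77). Shifted by 1 kb the same windows gave 3.13%, 3.98% and 6.49%. Within 100 bases of the summit the shares were 3.98%, 2.89% and 0%, as the sites lie mostly beyond 100 bases. The PU.1 core GGAAGT, also searched on both strands, was spread evenly, at 55.4%, 52.4% and 51.9%, and the AP-1 site TGANTCA at 12.5%, 13.2% and 10.4%. The PU.1 core overlaps the composite site where the latter begins with it.

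The IRF8 summits were also divided by distance and by acetylation. Beyond 1 kb from a gene start, 6.08% of 11999 summits were covered in WT alone and 0.42% in KO alone (all 3 kinds of list), and within 1 kb 2.11% and 1.40% of 4935. Where H3K27ac was in the WT consensus and not in the KO consensus, 538 of 9140 summits (5.89%) were covered in WT alone. Where both genotypes had an H3K27ac consensus region, the count was 18 of 4710 (0.38%). The highest share of the 3 was at summits with no WT H3K27ac consensus region, 277 of 3084 (8.98%), where H3K4me1 also covered fewer summits in WT, 76.1% and 70.4% with balanced lists. Summits with WT PU.1 gave 1.77%. H3K4me1 covered most IRF8 sites in KO, those with H3K27ac in the WT and not the KO consensus included. At these 9140 it covered 80.1% and 79.2% of summits in the KO libraries with balanced lists, and 94.6% and 90.4% in WT.

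**Figure D3:**
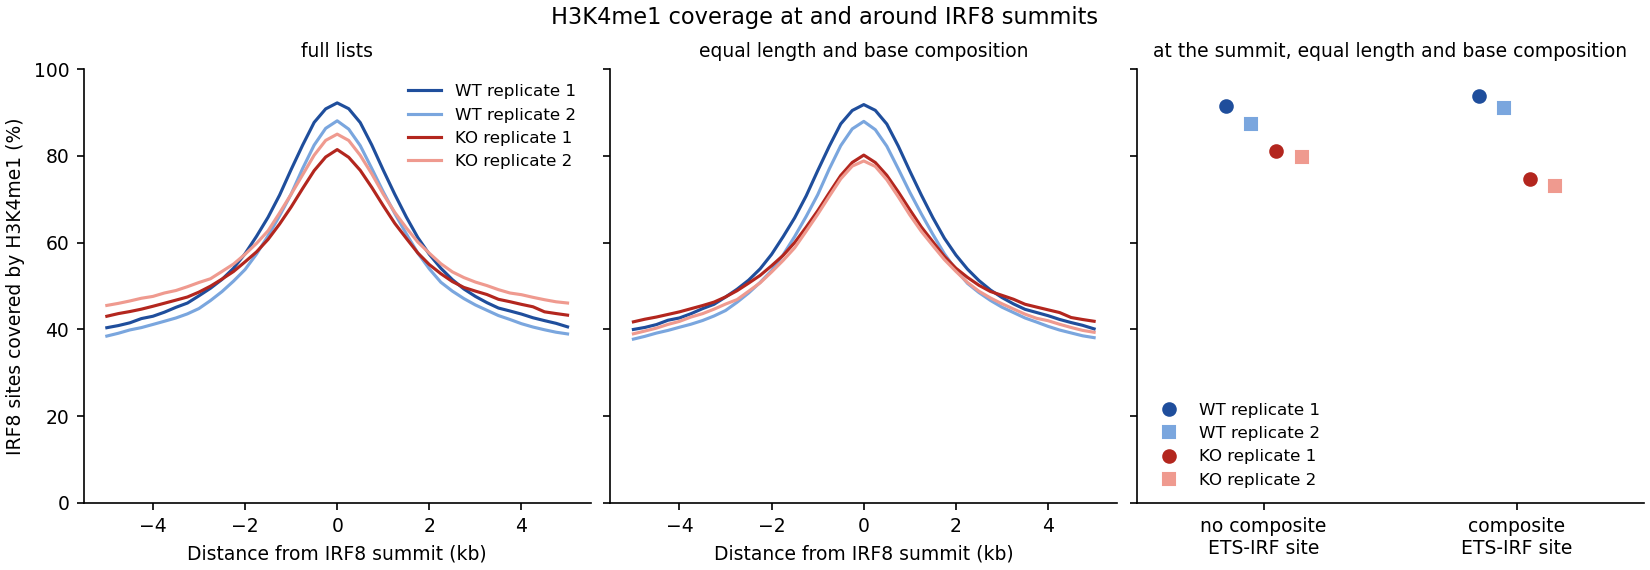
Share of IRF8 summits covered by H3K4me1 at distances of up to 5 kb, with full (left) and balanced lists (middle), 1 line per library, and the share covered at the summit itself with and without a composite ETS-IRF site (right). The WT lines lie above the KO lines at the summit and not at 5 kb, and the KO points are at 74.7% and 73.2% with a composite site and 81.1% and 79.8% without.

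By position, the regions of 1 genotype were more distal than shared ones with full lists. Within 1 kb of a protein-coding start lay 3.21% of WT-only, 6.13% of KO-only and 16.5% of shared WT regions. For KO-only regions the order turned where only regions whose −log10 p reached 3 were kept, at 16.3% of KO-only and 11.6% of shared regions. Of the WT-only regions 52.1% were more than 50 kb from a start and 52.3% intergenic, against 30.1% and 34.9% of the KO-only ones. The median GC content was 40.2% in WT-only and 44.9% in KO-only regions, and 44.7% in shared WT regions. With balanced lists the classes drew together: 6.92% of WT-only and 6.03% of KO-only regions were within 1 kb of a start, at a median GC content of 42.8% and 42.9%, and 42.0% and 30.9% were beyond 50 kb. Whether base composition accounts for the rest was not tested.

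The X chromosome stood apart in WT. Of the WT consensus regions on it 26.8% were WT-only, against 6.24% to 16.2% on the autosomes, and 33.6% and 28.9% with equal and balanced lists (autosomes 7.98% to 19.9% and 9.44% to 18.5%). The X held 4.69% and 6.27% of the regions in the WT libraries and 2.95% and 4.91% in the KO libraries. KO replicate 2 lay above WT replicate 1, so the libraries overlap with full lists. With equal lists they did not, at 4.69% and 6.12% against 2.88% and 4.09%, and with balanced lists they did, at 4.64% and 5.07% against 3.15% and 4.79%. Of the KO consensus regions on the X 21.1% were KO-only with full lists, within the range of the autosomes. The labels call all 4 libraries female, while WT replicate 2 and the KO libraries listed 25, 9 and 17 regions on the Y chromosome and WT replicate 1 none.

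Regions that all 4 libraries shared were wider in KO more often than in WT. Of 31856 merged stretches present in all 4 full lists, 9403 were wider in both KO than in both WT libraries (29.5%) and 5029 wider in both WT libraries (15.8%). The median covered width in them was 3813 and 3512 bp in WT and 3944.5 and 4353.5 bp in KO. With balanced lists the shares were 27.9% and 17.1% of 26673 stretches.

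By gene, H3K4me1 was measured as the length covered within the gene body and 10 kb on either side, for 21911 protein-coding genes, and the fold is that of the mean lengths after adding 1000 bp. A gene counts as lower in KO when both KO libraries lie under both WT libraries, and as higher in the opposite case. In full lists 6.31% of genes were lower and 43.1% higher. Asked of all 3 kinds of list, 1073 genes were lower (4.90%) and 5379 higher (24.5%), of which 278 and 1364 differed at least 2-fold in each. The median log2 ratio over all genes was 0.43 with full, 0.21 with equal and 0.11 with balanced lists, and the KO excess thus shrank as the lists were made alike. In the text below, lower and higher in H3K4me1 mean in all 3 kinds of list, and those in H3K27ac mean in its lists of equal length alone. The log2 ratios are from full lists unless stated.

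H3K4me1 and H3K27ac differed in opposite proportions. Measured the same way in H3K27ac lists of equal length, 30.3% of genes were lower and 4.40% higher in KO. In H3K4me1 lists of equal length, 11.8% were lower and 34.3% higher. Of the 1073 genes lower in H3K4me1, 54.3% were lower in H3K27ac and 0.75% higher, but of the 278 that differed at least 2-fold 28.1% were lower, under the 30.3% of all genes. Of the 5379 higher in H3K4me1, 34.4% were lower in H3K27ac and 7.75% higher. Genes on the X chromosome made up 6.52% of the lower genes, 0.93% of the higher genes and 4.33% of all.

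Homeostatic microglia genes were covered by H3K4me1 to a similar or greater length in KO, while H3K27ac was lower at nearly all of them. Of 16 members, 2 were lower (against 4.90% of all genes) and 7 higher (43.75% against 24.5%) in H3K4me1, with a median log2 ratio of 0.09 against 0.43 over all genes, and 15 were lower (93.75% against 30.3% of all genes) and none higher in H3K27ac. Sall1, a zinc-finger factor that sets microglia apart from other macrophages, was the exception in size. H3K4me1 covered 27168 and 25242 bp at Sall1 (chr8:89027235-89044162) in WT and 8542 and 10568 bp in KO, a log2 ratio of −1.37 (−1.84 with balanced lists). Its H3K27ac was 5585 and 10608 bp in WT against 0 and 0 in KO. The arrangement differed too. In WT the mark flanked the Sall1 start and left it bare, from −1.92 to 5.46 kb of it in replicate 1 and from −1.18 to 3.75 kb in replicate 2. In KO the start itself was covered, from −0.298 to 3.68 kb in replicate 1 and from −3.16 to 2.85 kb in replicate 2. An IRF8 consensus region spans the Sall1 start, from −0.493 to 1.55 kb. Gene starts covered in both KO and neither WT library in all 3 kinds of list were 1.88% of all, and the reverse 1.82%, so such a start is uncommon. The listed genes with a start covered in KO alone were Sall1, Cebpb and Irf1, and those in WT alone Batf3, Ifitm3, Cd209a, Cdh5 and Pax5.

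P2ry12, the purine receptor that steers microglial processes, had 63730 and 61607 bp in WT and 60484 and 58299 bp in KO, a log2 ratio of −0.08. Its groups did not overlap, yet the difference is a small part of its length. H3K4me1 in WT took up nearly all of the P2ry12 window, which left the covered length little room to rise. Cx3cr1, the fractalkine receptor gene, had 70315 and 64376 bp against 92355 and 112717 bp, a log2 ratio of 0.60. Its annotated span used here, chr9:119901616-120069879, is long and may take in neighbouring genes. Their part in the excess was not tested. Tmem119, a membrane protein used to mark microglia, had 12959 and 14000 bp against 18015 and 21487 bp (0.52). Olfml3, a secreted matrix protein gene, had 23441 and 22881 bp against 27878 and 27776 bp of H3K4me1 (0.25), and 7791 and 10827 bp against 0 and 0 of H3K27ac. Its 2 marks thus stood in opposite order between genotypes. Mertk, a receptor for dying cells, was also higher (0.13), and Csf1r, the receptor on which microglia depend, overlapped at 41513 and 39572 bp against 44434 and 41492 bp.

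**Figure D4:**
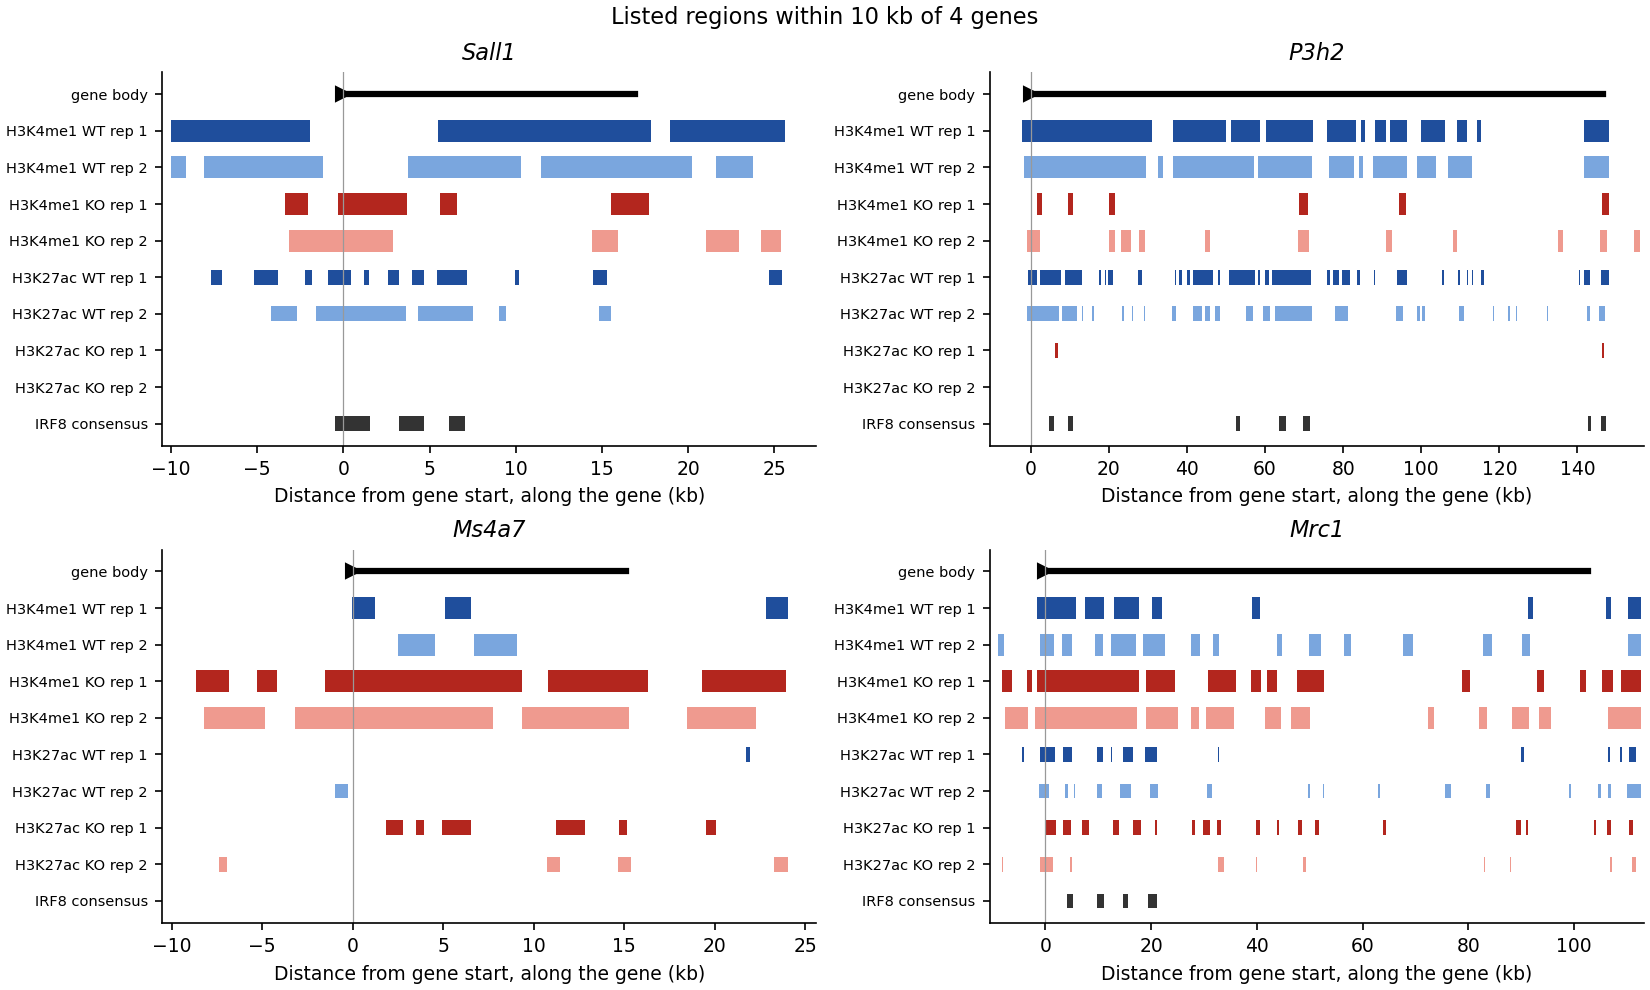
Listed H3K4me1 and H3K27ac regions of each library, and IRF8 consensus regions, along 4 genes and 10 kb on either side, as distance in kb from the gene start in the direction of transcription; the line with the arrow is the gene body. H3K4me1 is thinned at P3h2 and Sall1 and extended at Ms4a7 and Mrc1 in both KO libraries, and the Sall1 start is covered in KO alone.

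Of the disease-associated microglia genes, those microglia raise around plaques and dying cells, 2 of 19 were lower (against 4.90% of all genes) and 9 higher (47.4%, against 24.5%) in H3K4me1. In H3K27ac 13 were lower (68.4%, against 30.3% of all genes) and none higher. Apoe, the lipid carrier, had 7735 and 5873 bp in WT and 15017 and 16422 bp in KO, a log2 ratio of 1.10. Over its gene body alone the direction turned, to −0.62, so the excess lies in the flanks, which the neighbouring Apoc4 shares. Spp1, which encodes osteopontin, had 9716 and 12661 bp against 4028 and 4872 bp (−1.16), and its H3K27ac was lower as well. Ccl6, a chemokine gene, was the other lower member, at 17299 and 18471 bp against 13241 and 14901 bp (−0.33). Trem2, the lipid-sensing receptor, was higher at 14988 and 12104 bp against 21660 and 17879 bp (0.51).

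Of 20 transcription factors of myeloid cells 2 were lower (10% against 4.90% of all genes) and 7 higher (35% against 24.5%), and in H3K27ac 12 were lower (60% against 30.3% of all genes) and 0 higher. Irf8 itself had 26796 and 32276 bp in WT and 32614 and 31172 bp in KO. The genotypes overlap, and the length of this mark is no measure of whether the protein is made. Spi1, which encodes PU.1, was higher at 32616 and 27478 bp against 42493 and 41419 bp (0.47), with H3K27ac lower. Cebpb, a factor of inflammatory gene expression, had 5422 and 7908 bp against 12490 and 13468 bp (0.87). Irf9, a DNA-binding factor of interferon signalling, had 4771 and 4595 bp against 12474 and 11323 bp (1.18). Batf3, an AP-1 family factor of dendritic cells, was lower at 20256 and 19839 bp against 9689 and 16309 bp (−0.59), and its start was covered in WT alone. Maf, a large AP-1-related factor of macrophages, was the other lower one (−0.25, but 0.0010 among regions with a −log10 p of at least 3).

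Interferon-inducible genes stood higher in H3K4me1: 9 of 16 members were higher (56.25% against 24.5% of all genes) and 0 lower, with a median log2 ratio of 0.50 against 0.43 over all genes (0.38 against 0.11 with balanced lists). In H3K27ac 5 were lower (31.25%, near the 30.3% of all genes) and 1 higher. Ifit1, an RNA-binding antiviral protein gene, had 4640 and 6594 bp in WT and 12159 and 13673 bp in KO (1.07). Stat2, the signal transducer of type I interferon, had 8339 and 2132 bp against 12770 and 15149 bp (1.26), and Rsad2, which encodes viperin, 8880 and 4882 bp against 13834 and 17839 bp (1.10). The WT libraries differed about as much from each other as from KO at Stat2. Outside the list, the neighbouring antiviral genes Oas2 and Oas3, named after their values were seen, were almost bare in WT. Oas3 had 0 and 1097 bp against 12856 and 16370 bp, and Oas2 0 and 0 against 5080 and 8674 bp.

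Antigen presentation genes mostly overlapped between genotypes, with 0 of 15 lower and 2 higher in H3K4me1 (13.3%, under the 24.5% of all genes). The 5 lower in H3K27ac (33.3%) are near the share of all genes, 30.3%. H2-D1, a class I heavy chain gene, had 7793 and 4350 bp in WT and 8901 and 12229 bp in KO (0.71), and B2m, the class I light chain, 18331 and 15275 bp against 18789 and 20604 bp (0.22), which turned to −0.10 over the gene body alone and −0.0076 with 50 kb on either side. Ciita, the master regulator of class II genes, overlapped at 26398 and 27284 bp against 24086 and 37715 bp.

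Pattern recognition and cytokine genes held 3 lower of 18 (16.7% against 4.90% of all genes) and 4 higher (22.2%, near the 24.5% of all genes) in H3K4me1. In H3K27ac 17 were lower (94.4% against 30.3% of all genes) and 0 higher. Tlr3, the receptor for double-stranded RNA, had 17749 and 23774 bp in WT and 15946 and 13369 bp in KO (−0.47). Casp1, the inflammasome protease, had 18097 and 16803 bp against 13177 and 12297 bp (−0.43). Il6 was the third lower member, with 9043 and 8639 bp against 8377 and 7952 bp, a log2 ratio of −0.10 that turned to 0.072 over the gene body alone. Tlr1, a receptor for bacterial lipopeptides, was higher at 6271 and 7031 bp against 12595 and 10652 bp (0.72), and Tnf at 14109 and 11558 bp against 17490 and 16586 bp (0.38).

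Genes of border and other macrophages, the macrophages of the meninges, vessels and other tissues, had the highest median log2 ratio of H3K4me1 of the 14 gene lists, with full, equal and balanced lists alike. Of 12 members 7 were higher and 1 lower, with a median log2 ratio of 0.98 (0.57 with balanced lists), against 24.5% higher, 4.90% lower and a median of 0.43 over all genes, and 5 were higher (41.7% against 4.40% of all genes) and 2 lower (16.7% against 30.3%) in H3K27ac. Ms4a7 (chr19:11321039-11336146), a membrane protein of border macrophages, had 3951 and 4406 bp in WT and 23880 and 23999 bp in KO, a log2 ratio of 2.27. Its H3K27ac was 0 and 0 bp against 4546 and 2627 bp with equal lists, and no IRF8 consensus region lies there. Cd163, the haemoglobin scavenger receptor, had 3240 and 4038 bp against 12554 and 18042 bp (1.81), and Pf4, a platelet and macrophage chemokine, 3237 and 4384 bp against 15479 and 16317 bp (1.81). Mrc1, the mannose receptor, had 23734 and 30848 bp against 51361 and 57586 bp (0.97). Clec12a, an inhibitory lectin gene, had 9559 and 9734 bp against 20429 and 29061 bp (1.27), and F13a1, a coagulation factor subunit of macrophages, 14894 and 11810 bp against 23779 and 45374 bp (1.31). Both KO libraries stood well above both WT libraries at each of these genes. Stab1, a scavenger receptor, was also higher (0.66), Cd209a, a lectin of dendritic cells and macrophages, lower (−0.82, but 0.020 over the gene body alone), and Lyve1, Gata6, Ccr2 and Ly6c2 overlapped. In all, the list covered 115 and 124 kb in WT and 219 and 261 kb in KO with full lists, and 113 and 109 kb against 207 and 208 kb with balanced lists. More border macrophages in the sort and more H3K4me1 per cell cannot be told apart in these bulk samples.

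**Figure D5:**
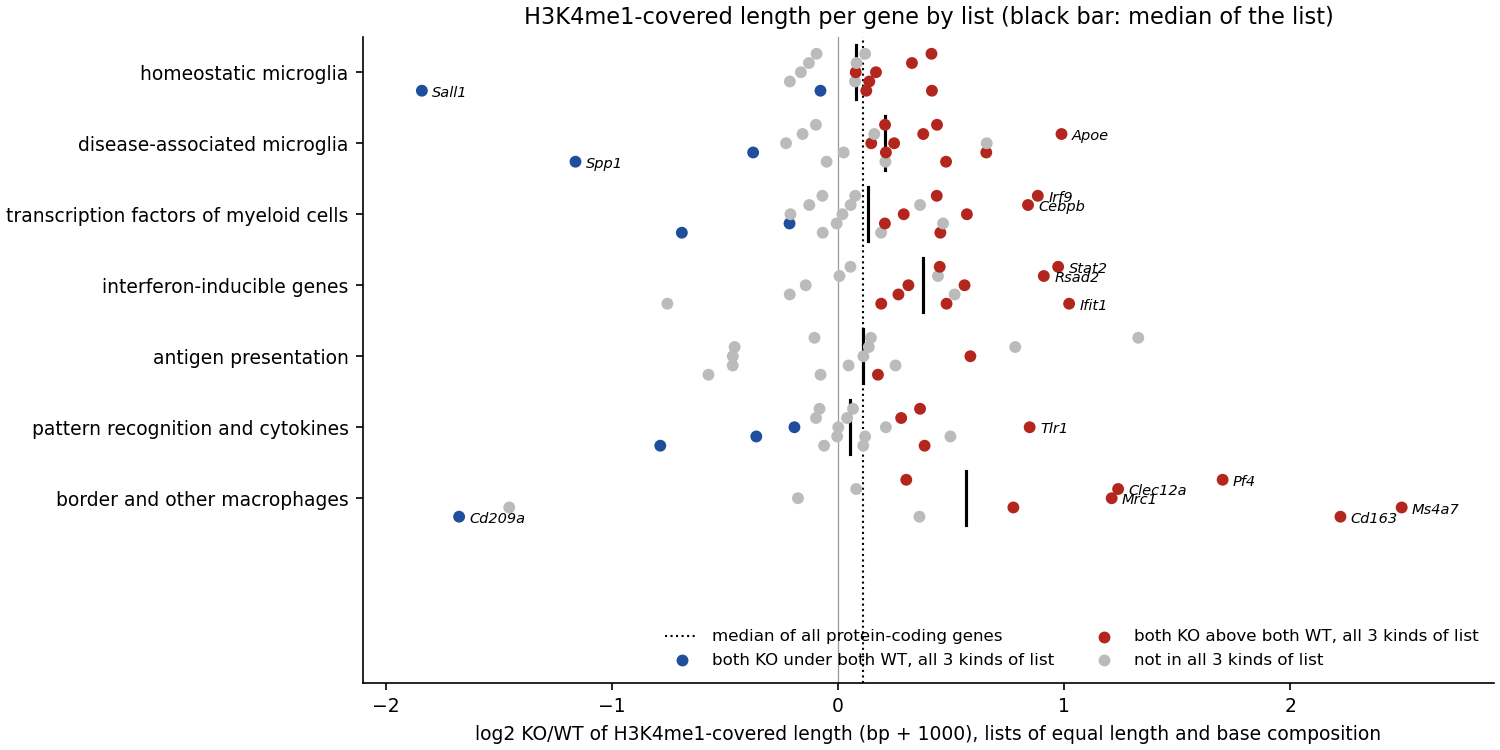
Log2 ratio of KO to WT H3K4me1-covered length (bp + 1000) with balanced lists, for each gene of 7 lists; blue and red points have both KO libraries under or above both WT libraries in all 3 kinds of list, black bars are list medians and the dotted line is the median of all genes, 0.11. Border macrophage genes reach the highest ratios in these 7 lists, and Sall1, Cd209a and Ly6c2 the lowest, Ly6c2 with genotypes that overlap.

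Markers of cells other than macrophages differed by list, with members higher and none lower in the neuronal, neutrophil and both lymphocyte lists. Against 4.90% of all genes lower and 24.5% higher, of the neuronal list 0 were lower and 1 of 8 higher, of astrocytes 1 and 0 of 6, of oligodendrocytes 1 and 1 of 7, of endothelial cells 1 and 0 of 5, of neutrophils 0 and 1 of 6, of T and NK cells 0 and 3 of 6, and of B cells 0 and 3 of 5. The T and NK cell list covered 28.8 and 23.5 kb in WT and 40.7 and 63.9 kb in KO, and the B cell list 49.5 and 40.6 kb against 52.6 and 83.6 kb, so both KO libraries lay above both WT libraries in either list. The same held for the sum over all genes, 263777 and 257023 kb against 309126 and 394878 kb. The gap shrank with balanced lists, to 27.1 and 23.5 kb against 37.4 and 40.96 kb and to 44.6 and 39.5 kb against 45.7 and 45.9 kb, with 255034 and 232502 kb against 284544 and 268809 kb over all genes. The part of lymphocytes in these differences was not tested. The neuronal list covered 157 and 129 kb in WT and 353 and 291 kb in KO, of which Rbfox3, a neuronal splicing factor, made up most of the difference: 42855 and 32247 bp against 178488 and 139895 bp, with 19 KO-only regions. The gene held no H3K27ac in WT and 0 and 1239 bp in KO. Cd79a, a subunit of the B cell receptor, had 8891 and 4890 bp against 10213 and 8904 bp. Cdh5, the endothelial cadherin, was lower at 19652 and 15711 bp against 1298 and 8680 bp (−1.64), and its H3K27ac was 11272 and 5416 bp against 0 and 0.

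The genes with the largest differences were mostly small or bare in one genotype. The 10 of lowest ratio, chosen among genes called in full and equal lists, were Vmn1r184, Tmprss11f, Olfr47, Gm6760, Ugt2a1, Olfr434, Gm6217, P3h2, Skint10 and Macc1, at −3.06 to −2.58 on the log2 scale. Apart from P3h2 and Macc1 they had under 15 kb in each WT library and little or nothing in KO, and Ugt2a1, Olfr434 and Skint10 were not called with balanced lists. P3h2 (chr16:25959288-26105784), a collagen prolyl hydroxylase gene, had 98401 and 100337 bp in WT and 9901 and 20557 bp in KO, a log2 ratio of −2.63. Its H3K27ac was 42244 and 36953 bp against 795 and 0. Of 7 IRF8 summits at P3h2, 4 were covered in WT alone, 2 of them with a composite site nearby, and the sequence above is from 1 of these. Macc1 (chr12:119314270-119469987), a gene linked to MET signalling, had 42680 and 47042 bp against 3504 and 9811 bp (−2.58), with 6 WT-only regions and 6 of 7 IRF8 summits covered in WT alone. The 10 of highest ratio were D430019H16Rik, Zfr2, Espnl, Bpifb6, Jakmip3, Cpa4, Ace3, Oas3, Lrfn4 and Magea2, at 3.70 to 3.31, each with less than 3 kb in either WT library. None of these 10 was called higher in H3K27ac.

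Other genes with a strong pattern were named after their values were seen. Il7r, the interleukin 7 receptor, had 16155 and 19613 bp in WT and 1464 and 5892 bp in KO (−2.01). Timd4, a phosphatidylserine receptor of resident macrophages, had 25329 and 17086 bp against 5301 and 8478 bp (−1.49), and its promoter holds the composite site shown above. Ctsh, a lysosomal cathepsin gene, had 23519 and 16675 bp against 3950 and 10122 bp (−1.39), and Pdcd1, which encodes PD-1, 22649 and 18161 bp against 3266 and 13104 bp (−1.22). H3K27ac was lower in KO at each of these 4 genes. Long genes were also among those lower in KO. Plxdc2, a plexin-domain receptor gene, had 254130 and 249562 bp against 90696 and 112913 bp (−1.30). Csmd3, a large complement-control-domain gene, had 247913 and 291361 bp against 68919 and 82348 bp (−1.82), with 28 WT-only and no KO-only regions and no IRF8 consensus region.

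In the other direction, Colec12, a scavenger receptor of the collectin family, had 9710 and 14200 bp in WT and 51463 and 73728 bp in KO (2.30). Apoc4, next to Apoe, had 3521 and 1941 bp against 23397 and 19019 bp (2.57), and Ms4a4b, of the same family as Ms4a7, 4559 and 3609 bp against 23280 and 19655 bp (2.14). Gfod1 had 24372 and 12736 bp against 85646 and 76362 bp (2.07). H3K27ac was higher in KO at each of these 4. At Egfl7, an endothelial secreted factor gene, and Cspg4, a proteoglycan of pericytes and glial precursors, the log2 ratios were 2.27 and 2.81 with H3K27ac not called either way.

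The genes with the most KO-only regions were long. The read-through model Gm20388 held 55, Fgfr2 38, Dlg2 23 and Dpp6 21. The Fgfr2 span used here, chr7:130162451-133123350, is also very long. The counts and H3K27ac of Gm20388 and Fgfr2 are those of the whole span, which may take in other genes. At Gm20388 and Fgfr2 the H3K27ac was lower in KO, at Dpp6 higher, and Dlg2 also held 12 WT-only regions. Fhit held 18 WT-only and 3 KO-only regions, with 214750 and 250199 bp in WT and 97247 and 202997 bp in KO. At Fhit KO replicate 2 lay close under WT replicate 1, and the 2 KO libraries differed from each other by more than that.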

How the data were processed

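H3K4me1 was mapped by CUT&RUN in 2 WT and 2 KO libraries of adult microglia, read as pairs of 35 nt. The submitters' processing notes name mm10, bcl2fastq, Trim Galore, Bowtie2, deepTools and MACS2, without versions or order. Per the file headers the authors called broad regions in each library with MACS 2.2.6, at a p-value of 0.01 (0.1 for weak stretches) and a minimum length of 1000 bp, from paired-end fragments with duplicates kept, against 1 IgG library, the larger of the pair being scaled down. Deposited for each region are its pileup (fragment coverage signal), −log10 p and fold enrichment ratio over the control, all of them the authors' values, used here to rank, filter or describe regions within a list. Its q-value column was left aside, since the header says none was computed. The H3K27ac, PU.1 and IRF8 lists were used by position, and the deposited −log10 p of IRF8 also to choose summits.

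From these lists, positions were merged, counted and intersected (at least 1 bp shared) in Python 3.11.15 with pandas 2.3.3 and NumPy 2.4.6, with code tested on simulated intervals. Genes and starts are those of GENCODE vM21 and sequences those of RefSeq, both on GRCm38. Depth was 14.1 to 23.9 M fragments, and 2 libraries a genotype limit every comparison. Genes named are the 5 strongest WT-only and KO-only regions, the 10 genes of largest ratio each way among those called in full and equal lists, all listed genes by count (values of some members are not reported here), and others said to be named after their values. Balanced lists, the count over 3 kinds of list, the summit and gene start counts and the motif window were chosen after seeing the data. The lists and the 4 libraries were chosen with earlier results of these data known, so a pattern shown before is no independent support here. Alternatives were equal, stricter or balanced lists, other overlap, merging and gene windows, and each library left out.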

Additional observations from a re-analysis of the deposited data

How the results depend on the processing

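Each library left out in turn moved most values, partly because 1 library then stands for a genotype: the log2 ratio of region numbers ranged from −0.041 to 0.70 and the width difference from −23.5 to 86.5 bp. The WT share absent in KO ranged from 19.04% to 44.1% and the KO share absent in WT from 32.6% to 56.0%. The share near a start ranged from 2.08% to 5.59% for WT-only, 3.83% to 8.33% for KO-only and 12.1% to 17.8% for shared regions. WT-only overlap ranged from 2.12% to 16.0% with WT H3K27ac, 0.80% to 7.51% with IRF8 and 0.0926% to 1.26% with WT PU.1, KO-only overlap from 0.23% to 1.499% with KO H3K27ac and 0.15% to 1.87% with IRF8, and shared overlap with IRF8 from 16.9% to 29.7%. Genes lower in KO ranged from 1975 to 4845 and genes higher from 10579 to 15660. The replicate block, with the 2 replicate numbers as pairs, gave the same log2 ratio of numbers, 0.33, and width difference, 31.5 bp; nothing in the labels says that the numbers pair the libraries. Kept to regions whose −log10 p reached 3, the lists gave a log2 ratio of numbers of 0.89 and a width difference of −724.5 bp, the opposite sign. Then 6.94% of WT-only, 16.3% of KO-only and 11.6% of shared regions lay near a start, overlap was 64.7%, 34.5% and 6.22% of WT-only regions with WT H3K27ac, IRF8 and WT PU.1, 8.92% and 10.4% of KO-only regions with KO H3K27ac and IRF8, and 49.4% of shared regions with IRF8, and 865 genes were lower. With overlap asked over 50% of a region the absent shares were 25.2% (WT) and 43.0% (KO), and the same 5 WT-only and KO-only overlaps were 4.88%, 0.87%, 0.0155%, 0.115% and 0.0542%, with 2.13% for shared regions. Asking absence from the other consensus alone gave 30.3% and 44.4%. Within 2500 bp of a start lay 6.18%, 11.9% and 26.3%. With equal lists 3.93% of WT-only and 7.46% of KO-only regions lay near a start, overlaps were 14.4%, 7.06%, 0.83%, 1.26% and 0.85%, with 29.2% for shared, and 2579 genes were lower. With balanced lists 6.92% and 6.03% lay near a start, overlaps were 17.1%, 8.74%, 1.08%, 1.56% and 0.71%, with 29.7% for shared, and 2788 genes were lower and 5911 higher. With equal covered length 3169 genes were lower. Of the 97 genes tried, 88 kept their direction in 11 alternatives. The exceptions were Ddx58 (−0.50 at −log10 p of at least 3, −0.13 at equal covered length), Igf1 (−0.25) and Maf (0.0010) at −log10 p of at least 3, Apoe (−0.62), B2m (−0.10), Cd209a (0.020), Ifitm3 (−0.76) and Il6 (0.072) over the gene body alone, and B2m (−0.0076) and Gm6217 (0.30) within 50 kb. The cause was not tested. Absence from a list is commonest among weak regions; whether depth sets it was not tested.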
